A study of Rattus norvegicus with 46 samples.

Results

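Left ventricle of newborn rats was compared with that of adult rats on 2 neonatal arrays, NEO-1 and NEO-2, and on 18 adult control arrays in 9 groups, 20 of the 46 arrays of the series. All animals were male Wistar rats, and each array was hybridised with 1 pool of ventricular RNA. The neonatal hearts were taken 3 days after birth, and the labels describe them as left ventricle. The adult controls were sham-operated rats 6, 12, 16 and 30 weeks after the sham for aortic banding, 3 and 9 weeks after the sham for myocardial infarction and 3 and 8 weeks after the sham for an aortocaval shunt, plus rats given vehicle for 2 weeks, with 2 arrays in each group. The remaining 26 arrays came from hypertrophic adult left ventricle. They covered aortic banding (10 arrays), infarction with the scar removed (8), shunt (4), a 2-week infusion of angiotensin II (2) and a 2-week infusion of the thyroid hormone analogue Ditpa (2), each read against its own controls (both hormone treatments against the same 2 vehicle arrays). The labels call the Ditpa treatment an infusion and give it no other control, whereas the methods describe injections with saline controls, so that the vehicle arrays may not be its matched control. No adult heart was processed as the neonatal hearts' own control in the labels, so age and experiment cannot be told apart, and p-values measure the spread between RNA pools only. In RNA from whole tissue, fewer cells of a type and less RNA per cell cannot be told apart either.

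The rat heart changes from a growing to a working organ in the weeks after birth. Cardiomyocytes divide for a few days after birth and then leave the cell cycle, sarcomere genes of the fetal heart give way to adult ones, and the main fuel shifts from glucose and lactate to fatty acids as mitochondria multiply. Several fetal genes, atrial natriuretic peptide and skeletal alpha-actin among them, are known to be switched on again when the adult ventricle is overloaded, which is why neonatal hearts are often set beside hypertrophic ones.

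The unit was the signal of a probe set, the group of short probes on the array that reads 1 transcript, on the log2 scale after raising values to at least 16. A difference is the neonatal mean minus the mean of the 9 control groups, given ± SE, and a probe set was called when its adjusted p (limma, Benjamini-Hochberg over all probe sets) was below 0.05. Of 8740 probe sets, 1357 (15.5%) were called higher and 1489 (17%) lower in the neonatal ventricle. Among these, 268 (3.07%) were higher and 132 (1.51%) lower by at least 1 log2, that is at least doubled or halved, and these 400 are called neonatal-high and neonatal-low below. Both neonatal arrays lay above all 18 control arrays for 257 of the 268 and below all of them for 118 of the 132. Among all probe sets the shares were 12.4% above and 10.3% below. The members were chosen by their difference on these same arrays, so this separation follows largely from the choice and is no further evidence. The 268 carried 185 gene symbols and the 132 carried 76, with 41 and 39 probe sets without a single symbol. The neonatal-high probe set nearest the limit was at 1.00 and the nearest outside it, Tmpo, at 0.996. On the lower side the nearest member was at -1.003 and the nearest outside it, Slc41a3, at -0.9996. Read per gene, by the brightest of its probe sets, 15.1% of 4736 genes were called higher and 17.1% lower, with a median difference of -0.07. These are the shares against which each gene list below is set. With 1 neonatal array left out the spread is taken from the other groups, and fewer genes were called: 421 higher and 386 lower without NEO-1, and 523 and 409 without NEO-2.

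Both neonatal arrays were alike, with a correlation of 0.987 over all probe sets, against 0.930 to 0.963 between a neonatal and a control array and 0.964 to 0.992 between control arrays of different groups. Their brightest probe sets were dimmer: the highest signal was 24526 and 30195 on the neonatal arrays and 27718 to 64867 on the control arrays, at near equal median signals (1024 and 1028 against 1003 to 1072). Accordingly the 31 brightest probe sets, with a mean above 15 log2, had a median difference of -0.70 in the deposited values and of -0.03 after quantile normalisation, which gives every array the same distribution. The 146 between 14 and 15 log2 moved from -0.46 to -0.22. Between 8 and 14 log2 the bin medians lay between -0.11 and 0.06 with the deposited values. The angiotensin II and Ditpa arrays showed the same low ceiling, at -0.60 and -0.61 for the brightest bin. The value after quantile normalisation is therefore given wherever a list of bright genes is described. For genes at the ceiling a small value there follows from the method and is no evidence of equal expression.

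**Figure D1:**
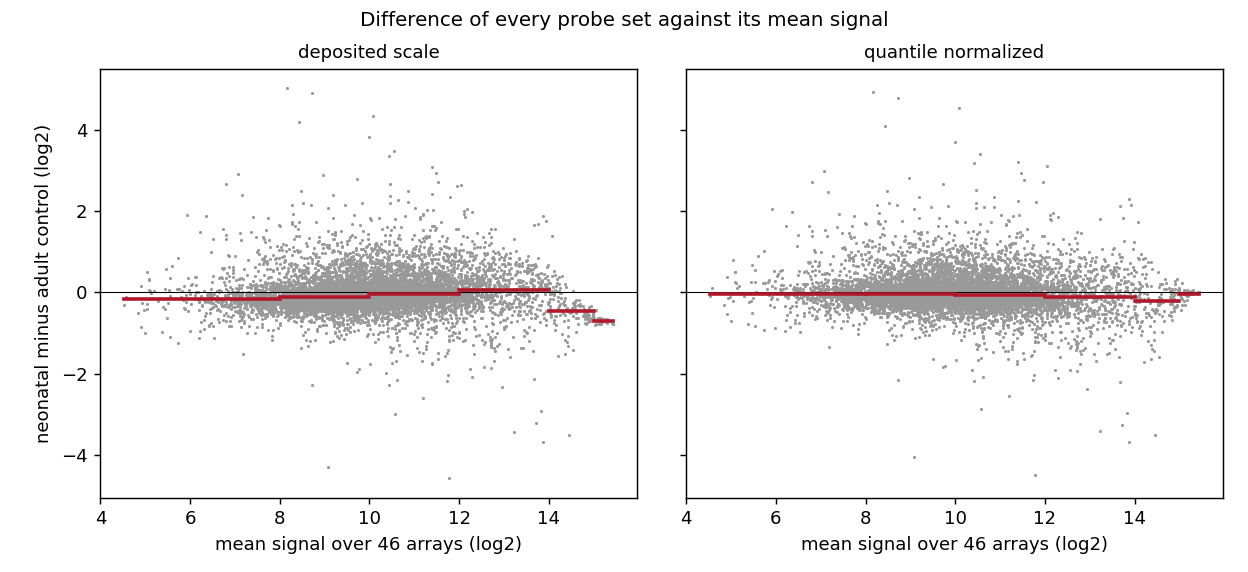
Each point is 1 probe set, with its mean log2 signal over the arrays on the x axis and the neonatal minus adult control difference (log2) on the y axis, for the deposited values and after quantile normalisation, and red steps mark the bin medians. The brightest bin lies at -0.70 with the deposited values and at -0.03 after quantile normalisation, while bins below 14 log2 lie between -0.17 and 0.06 with the deposited values.

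The label of the tissue was checked against marker genes. The markers of ventricular cardiomyocytes were present at both ages, with summed signals of 255327 and 209121 on the neonatal arrays and 237282 to 479102 on the controls. Of 11 such markers 10 were called lower, with a median of -0.65 that became 0.00 after quantile normalisation, and 1 was lower without NEO-2. For markers at the ceiling, such as Tnni3, a value of 0.00 follows from the normalisation. Atrial markers moved the other way: Myl4, Nppa and Myl7, the 3 measured of 4 listed, were all higher, and their summed signal was 42213 and 45466 against 10167 to 19702. All 3 are also made by ventricular muscle of the developing heart, and the part of any atrial tissue in them was not tested. Among 10 fibroblast markers 5 were higher and 1 lower, with sums of 82319 and 52750 against 30966 to 59627, so that NEO-2 lay inside the range of the controls. Among 8 endothelial markers Pecam1 (0.54, but 0.18 and not called without NEO-2) and Cav1 (0.50, but 0.45 and not called without NEO-1) were higher, and the sums were 17188 and 17510 against 13186 to 17362. Macrophage markers summed to 10476 and 9463 against 9929 to 17678, with 2 of 7 lower, and 1 without either neonatal array. Erythroid markers summed to 62140 and 51338, inside the control range of 49295 to 88283, and the transferrin receptor Tfrc (1.18) and Alas2 (0.35, but 0.03 and not called without NEO-1) were the 2 of 8 that were higher. Of 6 smooth muscle markers Myl9 and Acta2 were higher and Myh11 (-0.30, but -0.19 and not called without NEO-2) was lower. No marker of T cells, B cells, mast cells, adipocytes or liver was higher, and 2 of 9, 1 of 1, 2 of 7, 1 of 6 and 1 of 7 were lower, by 0.51 or less. Each of these 5 counts was 0 in at least 1 of the fits without NEO-1 or without NEO-2. No lung, neutrophil or nerve marker was called. Over all genes 15.1% were called higher and 17.1% lower, so calls of single markers in such short lists say little.

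Genes that drive cell division were mostly higher in the neonatal ventricle. The promoters of 4 of them are shown because most of this list moved one way and classical promoter elements of cell cycle genes can be read from the letters. They are the 250 bases before the transcription start, in RefSeq's GRCr8 assembly, 5′ to 3′ on the strand of the gene. By the brightest probe set of each gene Cdk1 and Stmn1 had the largest differences of the list, and Mcm6 and Top2a each had 3 probe sets that all rose. Capitals mark, on either strand, the CCAAT box (CCAAT, or ATTGG when on the other strand), the cell cycle homology region (TTTGAA, or TTCAAA) and E2F letters (TTTGGCGC or TTTCGCGC among the 4 forms searched). In Mcm6 both E2F forms overlap in 1 stretch.
Cdk1, chr20:19265043-19265292, + strand: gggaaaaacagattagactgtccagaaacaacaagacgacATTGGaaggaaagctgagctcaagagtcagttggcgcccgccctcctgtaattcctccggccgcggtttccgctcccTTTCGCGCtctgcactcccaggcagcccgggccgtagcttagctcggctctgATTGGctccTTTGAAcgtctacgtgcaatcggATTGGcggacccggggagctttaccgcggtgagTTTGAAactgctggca
Stmn1, chr5:151964929-151965178, + strand: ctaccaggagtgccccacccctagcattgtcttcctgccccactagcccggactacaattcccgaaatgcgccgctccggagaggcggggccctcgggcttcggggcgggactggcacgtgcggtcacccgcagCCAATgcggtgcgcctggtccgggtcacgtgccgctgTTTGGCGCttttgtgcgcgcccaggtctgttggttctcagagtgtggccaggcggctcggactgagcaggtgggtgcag
Mcm6, chr13:42404353-42404602, - strand: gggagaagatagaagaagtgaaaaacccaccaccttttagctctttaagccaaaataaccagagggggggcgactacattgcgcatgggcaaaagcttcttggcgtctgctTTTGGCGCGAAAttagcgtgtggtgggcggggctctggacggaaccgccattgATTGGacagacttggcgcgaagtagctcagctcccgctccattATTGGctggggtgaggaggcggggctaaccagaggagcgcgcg
Top2a, chr10:84473094-84473343, - strand: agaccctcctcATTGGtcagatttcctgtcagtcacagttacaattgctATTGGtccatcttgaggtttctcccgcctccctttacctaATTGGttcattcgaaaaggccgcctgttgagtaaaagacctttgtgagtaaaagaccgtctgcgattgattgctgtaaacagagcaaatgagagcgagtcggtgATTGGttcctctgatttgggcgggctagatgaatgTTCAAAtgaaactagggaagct
In the Cdk1 promoter the letters of the CCAAT box occurred 3 times, those of the homology region 2 times and an E2F form 1 time, 133 bases before the start. The Top2a promoter held 4 CCAAT boxes and 1 homology region, 22 bases before the start, and no E2F letters. Over the 24 cell cycle drivers with a promoter in the table, 17 (70.8%) held a CCAAT box, 5 (20.8%) the homology region and 7 (29.2%) an E2F form. Among all 27457 genes with a promoter these shares were 36.1%, 17.2% and 1.91%, and among the 3879 measured genes with one they were 36.9%, 11.1% and 2.68%. Of the 110 genes with a promoter that were higher by at least 1 log2, 50.9% held a CCAAT box and 7.27% an E2F form, and of the 46 lower by at least 1 log2, 50% and 0%. A match of letters is a description of the sequence and not a site at which a factor was measured.

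Of 29 measured genes that drive the cell cycle, 22 were higher, none was lower and the median was 0.61 (0.62 after quantile normalisation), and both neonatal arrays stood above all 18 controls for 21 of the 29. Without NEO-1 20 were higher and without NEO-2 18. Cdk1, the kinase that starts mitosis, had signals of 3568 and 6653 on NEO-1 and NEO-2, and between 189 and 473 with a median of 264 on the controls. The groups were far apart, a difference of 4.19 ± 0.182 (18.3-fold, adjusted p = 5.98e-18). Stmn1, which takes microtubules apart for the spindle, was at 4427 and 5371 against 538 to 961, median 673 (2.79 ± 0.193). Pcna, the sliding clamp of DNA polymerase, was at 6001 and 9218 against 1455 to 3565, median 2134 (1.86 ± 0.18, adjusted p = 1.26e-09). For all 3 NEO-2 was the higher array. Enzymes and loaders of replication rose with them: Dut by 1.60, Mcm5 by 1.39, Mcm6 by 1.14 (its other probe sets 1.51 and 2.88) and Fen1 by 0.77. Of the mitotic genes, Cdc20 rose by 1.07, Ccnb1, the cyclin partner of Cdk1, by 0.75, Aurkb by 0.48 and Plk1 by 0.28, and Top2a, which untangles chromosomes, by 0.79 ± 0.112 (1923 and 2800 against 1192 to 1624). The G1 genes moved less, with the exception of Cdk4 (1.27): Ccnd3 was at 0.46, Ccnd2 at 0.42 and Ccnd1 at 0.34, and the calls of Ccnd2 (0.17) and Ccnd1 (0.33) were lost without NEO-1. Plk1 was not called without NEO-2 (0.22). Cdk2 (0.17), Ccne1 (0.13) and Cdc25a (-0.32) were not called. Of 9 cell cycle brakes, 2 were higher and 3 lower: Btg1 at 0.98 and Cdkn1b at 0.42, and Ccng1 at -1.56 (7237 and 5843 against 14290 to 23407), Rbl2 at -0.55 and Rb1 at -0.43. The calls of Cdkn1b, Rb1 and Rbl2 were each lost when 1 of the neonatal arrays was left out, with Cdkn1b at 0.34 without NEO-2, Rb1 between -0.47 and -0.38 and Rbl2 between -0.67 and -0.43 without either. The inhibitor Cdkn1a was not called, at -0.15.

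**Figure D2:**
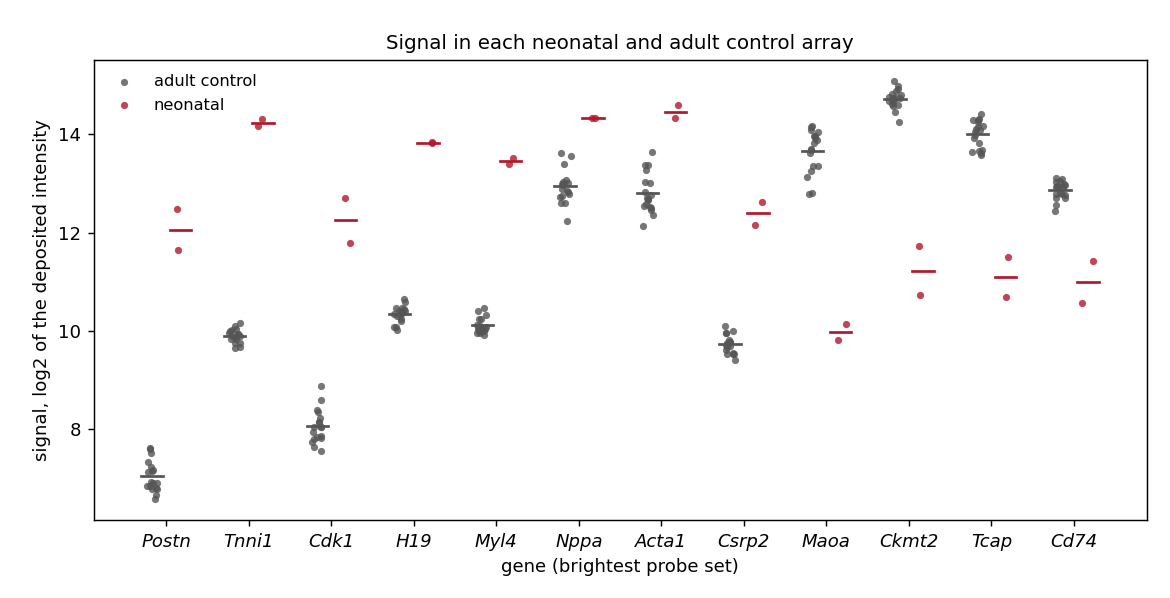
Signal on each array, on a log2 axis, of 12 genes in the 18 adult control arrays (grey) and the 2 neonatal arrays (red), with a line at each group mean. The neonatal points lie above all controls for Postn, Tnni1, Cdk1, H19, Myl4, Nppa, Acta1 and Csrp2 and below all of them for Maoa, Ckmt2, Tcap and Cd74.

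Genes of the immature sarcomere held some of the largest differences. Tnni1, the slow skeletal troponin I that the fetal heart uses in place of the cardiac form, was at 20268 and 18355 against 802 to 1144, median 954. The difference was 4.33 ± 0.0808 (20.1-fold, adjusted p = 2.74e-28), among the most precise of the comparison. Myl4, an essential light chain of the atrium and of the embryonic ventricle, was at 10865 and 11726 against 965 to 1413 (3.35 ± 0.201), and at 4.91 by its other probe set. Its regulatory counterpart Myl7 was at 10782 and 13119 against 2293 to 7306 (1.12 ± 0.252). Both actins that precede or accompany cardiac actin in the young ventricle were raised. Acta1, skeletal alpha-actin, was at 24764 and 20586 against 4514 to 12725, median 6646 (1.66 ± 0.177), and Acta2, the smooth muscle form, at 5299 and 10083 against 1638 to 2266 (1.92 ± 0.214). Near-identical actins can share probes, so the split among them is uncertain. Of the 9 measured genes of this list 5 were higher and 1, Myh7, was lower, with a median of 1.12. Tpm2, a tropomyosin outside this list, was at 2070 and 2954 against 396 to 629 (2.38 ± 0.217).

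The adult sarcomere genes read lower in the deposited values, 9 of 11 with a median of -0.66, but these are among the brightest on the array. After quantile normalisation the median was 0.00 and 2 were lower, and without NEO-2 1 was lower with the deposited values. Tnni3, the adult cardiac troponin I, was at 30180 and 24499 against 27687 to 64014, with overlap. Its difference was -0.77 as deposited and 0.00 after quantile normalisation, while Tnni1 kept 4.54 there. The highest signals of any probe set were 30195 and 24526 on the neonatal arrays and 27718 to 64867 on the controls. Tnni3 thus lay at the ceiling, where quantile normalisation sets the arrays near equal by construction. Its 0.00 is no evidence of equal expression, and neither scale can measure a gene at the ceiling. Myh6 and Myh7, the fast and slow cardiac myosin heavy chains, were at -0.57 and -0.63 as deposited and at 0.05 and 0.06 after quantile normalisation, and the other probe set of Myh7 was at 0.39 and not called. The other probe sets of Myh6 were at -0.75, called and at -0.59 after quantile normalisation, and at -0.26, not called. These chains are near identical, and which of them a probe set reads is uncertain. The call of Myh6 (adjusted p = 0.0453) was also lost in 17 of the 46 fits that left out 1 array, which gave between -0.71 and -0.42. The calls of Tnni3 and Myh7 were lost without NEO-2, at -0.62 and -0.48. For Tcap and Itga7 the difference was similar on both scales. Tcap, the titin cap, was at 2917 and 1644 against 12270 to 21879, median 17200, a difference of -2.91 ± 0.164 (7.51-fold lower) that stood at -2.95 after quantile normalisation. Ldb3 was at 6902 and 5762 against 9432 to 18669 (-0.92, and -1.11 after quantile normalisation), although its other probe sets were at -0.22 and -0.20. Itga7, the laminin receptor of muscle, was at 2731 and 1255 against 7611 to 11769 (-2.32 ± 0.168, and -2.38 after quantile normalisation). Desmin, Des, was not called, at -0.06.

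Atrial natriuretic peptide, Nppa, was raised and brain natriuretic peptide, Nppb, was not called. The Nppa signal was 20567 and 20621 on the neonatal arrays and 4824 to 12676, median 7847, on the controls, a difference of 1.39 ± 0.193 (adjusted p = 1.2e-06, and 1.73 after quantile normalisation). Its other 3 probe sets gave 1.69 to 1.88. Nppb was at 7597 and 13561 against 6651 to 12982, so the neonatal arrays spread as widely as the controls, and the difference was 0.08 ± 0.194 (adjusted p = 0.793). Of the receptors, the clearance receptor Npr3 was at 0.36, a call lost without NEO-2 (0.22), and Npr1 (0.18) and Npr2 (-0.09) were not called.

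Among 16 fetal growth and imprinted genes 6 were higher and 1 lower, with a median of 0.08, and the size of the change differed between neighbours of 1 pathway. H19, a non-coding RNA that is expressed from the maternal chromosome, was at 14451 and 14654 against 1045 to 1606, median 1325 (3.48 ± 0.111, 11.2-fold), and at 3.83 by its other probe set. Igf2, its imprinted neighbour and a fetal growth factor, was at 3422 and 4160 against 3027 to 4736 by its brightest probe set (-0.05 ± 0.108, adjusted p = 0.743). Of its 5 other probe sets 4 lay between -0.26 and 0.13, and 1 was at 2.72, so the array gives no single value for Igf2. Grb10, an adaptor that dampens insulin and growth factor signals, was at 7287 and 7921 against 1514 to 2268 (2.08 ± 0.125). Igf2r, which clears Igf2 from the surface, was at 5227 and 5659 against 2110 to 3571 (0.99 ± 0.0929). Plagl1 (0.71), Igfbp3 (0.47) and Gpc3 (0.27) were also higher, but Igfbp3 (0.44) and Gpc3 (0.29) were not called without NEO-2. Igf1, the growth factor of later life, was at -0.27 and not called. The growth factor Ptn, outside this list, was at 4575 and 2959 against 476 to 1200 (2.21 ± 0.154).

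By the brightest probe set of each gene, the largest difference among the named genes was in the matrix. Postn, periostin, secreted by fibroblasts of growing and healing tissue, was at 5692 and 3226 against 95.3 to 196, median 122 (5.02 ± 0.414, 32.5-fold, adjusted p = 4.2e-11). The fibrillar collagens rose less. Col3a1 was at 17910 and 14068 against 3259 to 9704 (1.56 ± 0.179), Col1a1 at 13115 and 10956 against 1660 to 7935 (1.36 ± 0.215), and Col1a2 rose by 1.94. Elastin, Eln, and Col5a1 each rose by 1.56, fibronectin, Fn1, by 2.19 (5 probe sets between 0.10 and 2.19), the cross-linking enzyme Loxl1 by 1.39 (0.68 and not called without NEO-1) and the membrane protease Mmp14 by 1.16. Of 43 matrix genes 17 were higher, 11 of them by at least 1 log2, and 8 were lower, with a median of 0.26. The lower ones included Mgp at -0.70, Ccn1 at -0.78, Tnc at -0.38 and the proteoglycan Dcn at -0.98. Dcn rested on 1 array: it was at 20166 and 7655 against 13476 to 33280 and fell to -0.28, not called, without NEO-2. Without NEO-2 18 matrix genes were higher and 1 was lower, and Ccn1 (-0.68), Mgp (-0.51) and Tnc (-0.39) were among the calls lost. Sparc disagreed among its probe sets, with -0.68 by the brightest and 0.83 to 1.10 by the other 3, and its call was lost without NEO-2 (-0.58). Osteopontin, Spp1, was at 113 and 551 against 101 to 252 and was not called (0.54 ± 0.487, adjusted p = 0.427).

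Of 24 cytoskeletal genes outside the sarcomere 12 were higher and 1 was lower, with a median of 0.26. Myl9, a light chain of smooth muscle and non-muscle myosin, was at 18630 and 16045 against 1572 to 3061 (2.93 ± 0.132). Csrp2, a LIM protein of smooth muscle, was at 4564 and 6341 against 684 to 1103, median 851 (2.66 ± 0.216), and Tubb5, a beta-tubulin of dividing cells, at 21576 and 22175 against 2504 to 5482 (2.64 ± 0.154, and 1.16 by its other probe set). Tubulin genes are close relatives and may share probes. Vimentin, Vim (1.45), Marcks (1.52), Csrp1 (1.42) and profilin, Pfn1 (1.26), followed. Tmsb4x was the one called lower, at -0.29, and that call was lost in 29 of the 46 fits without 1 array.

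**Figure D3:**
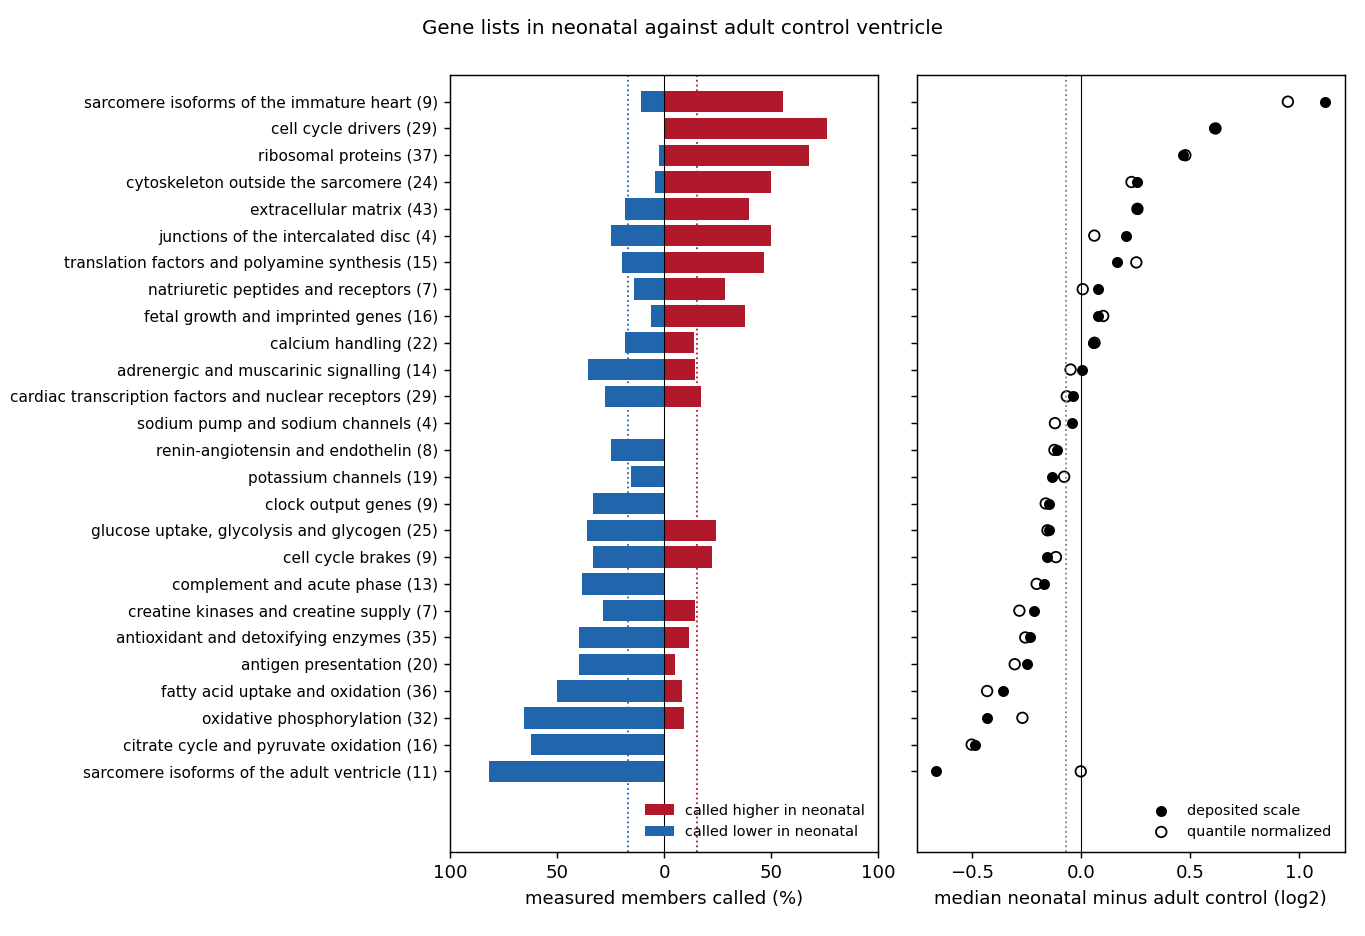
For each of 26 gene lists, the left panel shows the percentage of measured members called higher (one direction) and lower (the other) in the neonatal ventricle, with dotted lines at the shares among all genes (15.1% and 17.1%), and the right panel the median difference (log2) with the deposited values (filled) and after quantile normalisation (open). Cell cycle drivers and ribosomal proteins have medians of 0.61 and 0.47 in the deposited values, and the adult sarcomere median moves from -0.66 to 0.00.

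The machinery of protein synthesis was higher. Of 37 measured ribosomal protein genes 25 were higher and 1 was lower, with a median of 0.47 (0.48 after quantile normalisation). The count of higher genes was 12 without NEO-1 and 15 without NEO-2, at medians of 0.43 and 0.51. Most differences were small, between 0.36 and 0.95, and many ribosomal probe sets may also read processed copies. The exception was Rpl3, at 15196 and 15146 against 3247 to 5791, median 3808 (1.97 ± 0.221), and at 2.60 by its other probe set. Its muscle-specific paralogue Rpl3l, which was named after its values were seen, went the opposite way, at 2911 and 3556 against 6628 to 9699 (-1.32 ± 0.113). The other Rpl3l probe set was lower by 4.56, at 191 and 198 against 3221 to 6062. Rps29, the lower member, stood at -0.46 as deposited and 0.08 after quantile normalisation, and was not called without NEO-2 (-0.33). Of 15 genes of translation and polyamine synthesis 7 were higher and 3 lower, with 3 and 1 without NEO-1 and 5 and 0 without NEO-2. Nucleolin, Ncl, which serves ribosome assembly, rose by 1.14 (0.30 by its other probe set), Eif4ebp1 by 0.95 and Eef1a1 by 0.50 (0.38 and not called without NEO-1). The muscle and nerve form of that elongation factor, Eef1a2, was at -0.42, a call lost without NEO-2 (-0.27).

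Genes of energy metabolism were lower at several steps. Ckmt2, the creatine kinase of muscle mitochondria, was at 3412 and 1692 against 19462 to 34961, median 27432, a difference of -3.50 ± 0.151 (11.3-fold lower, adjusted p = 5.98e-18) and of -3.21 by its other probe set. Its cytosolic partner Ckm, a bright gene, was at -0.56 as deposited, at -0.02 after quantile normalisation and not called without NEO-2 (-0.42), and the brain form Ckb was not called (0.26, adjusted p = 0.341). Gatm, the first enzyme of creatine synthesis, was higher, at 917 and 1072 against 206 to 483 (1.73 ± 0.185).

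Of 36 genes of fatty acid uptake and oxidation, 18 were lower and 3 higher, with a median of -0.36 (-0.43 after quantile normalisation, where 21 were lower). Without either neonatal array 14 were lower. Acadm, the medium-chain dehydrogenase of beta-oxidation, was at 4092 and 3845 against 8065 to 13224, median 10376 (-1.39 ± 0.16). Lpl, which frees fatty acids from lipoproteins at the vessel wall, was at 12336 and 10722 against 16492 to 30681 (-1.08 ± 0.12, with its other probe sets at -1.31 and -1.52). Bdh1, which uses ketone bodies, was at 162 and 308 against 629 to 1171 (-1.95 ± 0.196). Further members were Cpt2 at -0.85, Echs1 at -0.80, Hadhb at -0.70 (-0.65 and not called without NEO-2) and Pdk2 at -1.09. Genes of fatty acid entry were mixed. Fabp3, the binding protein of the cytosol, was at -0.70 (-0.22 after quantile normalisation), and the transporter Slc27a1 (-0.35) and the ligase Acsl1 (-0.45) were lower, but not called without NEO-2 (-0.17 and -0.33). Not called were Cd36, the uptake protein, at 0.05 and Cpt1b, the adult carnitine transferase of the outer mitochondrial membrane, at 10406 and 10767 against 7931 to 14760 (-0.03, adjusted p = 0.859). Cpt1a, the form of liver and fetal heart, was at 0.35, a call lost without NEO-1 (0.34) and without NEO-2 (0.36). The thioesterase Acot1 (1.35) and the ligase Acsl3 (1.01) were the other higher ones. Pdk4, which blocks pyruvate oxidation, was at -0.94 and not called without NEO-1 (-0.65).

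Oxidative phosphorylation genes are bright. Of 32, 21 were lower and 3 higher with a median of -0.43, which became -0.27 with 16 lower and 4 higher after quantile normalisation. With the deposited values 14 were lower without NEO-1 and 13 without NEO-2, and 1 was higher in both fits. Subunits that were lower on both scales included Sdha (-0.58 and -0.75), Ndufa5 (-0.57 and -0.71) and Uqcrc2 (-0.56 and -0.61), whereas Atp5f1b was at -0.64 (-0.51 and not called without NEO-2) and -0.06 and Cox4i1 at -0.67 and -0.10. With the deposited values the ADP/ATP carriers differed in opposite directions, but the muscle form overlapped the controls on NEO-1 and shrank after quantile normalisation. Slc25a5, the form of dividing cells, was at 12946 and 14244 against 4417 to 6917 (1.21 ± 0.152), and Slc25a4, the muscle form, at 22964 and 19617 against 22117 to 43940 (-0.68, and -0.20 after quantile normalisation). In the citrate cycle and pyruvate oxidation list 10 of 16 were lower and none higher, with a median of -0.48 (-0.50). Pdha1 was at -0.73, Mdh2 at -0.68 and Idh2 at -0.68, and Got1 (-1.20) and Me1 (-1.0) were the lowest of this list. Cs, citrate synthase, was not called, at -0.10. Outside this list, the kinase Pdk1, which inhibits pyruvate dehydrogenase, was at 474 and 1552 against 2756 to 5053 (-2.19 ± 0.222).

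In glucose metabolism 6 of 25 genes were higher and 9 lower, with a median of -0.15, and several isoforms differed in direction. Without NEO-1 6 were lower and without NEO-2 4. The transporter Slc2a1, used by fetal heart, was at 2183 and 2378 against 1365 to 1756 (0.59 ± 0.0949, and 1.44 by its other probe set), and Slc2a4, the insulin-responsive transporter of adult muscle, at 1800 and 1577 against 2431 to 5929 (-1.19 ± 0.205, although its other probe set was at 0.12). Phosphofructokinase genes differed too, with the platelet form Pfkp at 1.02 and the muscle form Pfkm at -0.72. For enolase Eno1 was at 0.60 and called, and the muscle form Eno3 at -0.36 and not called. The lactate exporter Slc16a3 rose by 0.79 and the glycogen primer Gyg1 by 1.12, while Pygm and Pygb, which break glycogen down, were at -0.45 and -0.53, both not called without NEO-2 (-0.38 and -0.19). Pgam2 was at -0.84, but at -0.18 and not called without NEO-2. Hk1 (0.03) and Hk2 (0.16) were not called by their brightest probe sets, and their other probe sets gave 0.72 and -1.73.

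Of 22 calcium-handling genes 3 were higher and 4 lower, with a median of 0.06. Both counts were near the shares over all genes, 15.1% higher and 17.1% lower. Asph, whose locus also encodes junctin, a partner of the calcium release channel, was at 1462 and 512 against 2658 to 5395 (-2.03 ± 0.221). The T-type calcium channel Cacna1g, a fetal form, was at 0.51 and calsequestrin, Casq2, at 0.69. Probe sets of Slc8a1, the sodium-calcium exchanger, disagreed. The brightest was at 0.32 and not called (adjusted p = 0.0526), 3 others were higher, at 0.50, 1.20 and 2.50, and 1 was at -0.18 and not called. The pump Atp2a2 was at -0.72 as deposited, at -0.03 after quantile normalisation and between -0.11 and 0.01 by its other 3 probe sets, and its call was lost without NEO-2 (-0.58). Its inhibitor Pln was at -0.50, a call also lost without NEO-2 (-0.28), and the release channel Ryr2 at -0.43 and not called. Of 19 potassium channel genes none was higher and 3 were lower by the brightest probe set, Kcnj11 at -0.39, Kcnj3 at -0.30 and Kcnj5 at -0.26. The share of lower ones was near the 17.1% over all genes. All 3 calls depended on single arrays. Kcnj11 was not called without NEO-2 (-0.26) or Kcnj5 without either neonatal array (-0.28 and -0.24), and Kcnj3 lost its call in 31 of the 46 fits without 1 array (-0.15 without NEO-1). Without NEO-1 1 of the list was lower. Kcnd2, a channel of the transient outward current, was at 913 and 934 against 1110 to 1422 by its brightest probe set, which did not pass the test (-0.46, adjusted p = 0.0585), and its other probe set was lower, at -0.68 (adjusted p = 1.26e-05). For its relative Kcnd3 the brightest probe set was at -0.18 and not called, with others at 0.01, not called, and -0.99, called. No gene of the sodium pump list was called. The gap junction gene Gja1 was at 2768 and 1879 against 722 to 1955 (1.04 ± 0.25), with NEO-2 inside the control range, and was not called without NEO-1 (0.76).

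The neurohumoral lists held one large change. Maoa, which breaks down noradrenaline and serotonin, was at 1123 and 901 against 7114 to 18576, median 13904 (-3.68 ± 0.163, 12.8-fold lower, adjusted p = 9.47e-18), and at -3.43 by its other probe set. Of the 14 genes of adrenergic and muscarinic signalling 2 were higher, near the 15.1% over all genes, and 5, Maoa among them, were lower. The receptor Adra1b was at -0.54, but at -0.14 and not called without NEO-2. Gnas was at -0.42 (-0.27 without NEO-2), and Adrb3 and Adra1a were at -0.29 (-0.22 and -0.23 without NEO-1). Gnai2 was at 0.48 and Adra2b at 0.25 (0.33 and 0.22 without NEO-1). Each of these calls was lost in the fit named. Adrb1 (0.04) and Chrm2 (0.03) were not called. Of 8 renin-angiotensin and endothelin genes 2 were lower, Agtr1a at -0.69 and Agtr1b at -0.28, neither of them called without NEO-2 (-0.57 and -0.17). The fetal angiotensin receptor Agtr2 was at 1221 and 1290 against 1162 to 2223 and was not called (-0.49, adjusted p = 0.348).

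Of 20 antigen presentation genes 8 were lower, 11 were not called and 1 was higher, with a median of -0.25, and 6 were lower without either neonatal array. Cd74, the invariant chain of class II molecules, was at 2745 and 1521 against 5553 to 8842, median 7764 (-1.87 ± 0.158), with its other probe sets between -1.83 and -0.57. B2m, the light chain of class I, was at 3415 and 2660 against 5941 to 12464 (-1.60 ± 0.125), and the class II chain RT1-Da was at -1.55 and Cd1d1 at -1.43. RT1 genes are close relatives, so values of single members are uncertain. In the complement list 5 of 13 were lower (3 without NEO-1) and none higher. C1s and C1r, the proteases of the first component, were at -2.98 (162 and 190 against 834 to 2588) and -1.18, and Serping1, their inhibitor, at -1.48 (891 and 563 against 1438 to 3069). Lysozyme, Lyz2, a macrophage gene, was at 1607 and 924 against 1175 to 6742 with overlap (-1.09 ± 0.369), and was not called without NEO-2 (-0.69). The summed macrophage markers were at 10476 and 9463 against 9929 to 17678, so that NEO-1 lay inside the range of the controls. The part of macrophages in these lists was not tested.

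The largest fall among the named genes, by the brightest probe set of each, was in an enzyme. Ces1d, a carboxylesterase, was at 68.6 and 11.4 against 323 to 1662, median 580, with NEO-2 under the floor of 16 (-4.28 ± 0.35, a size that depends on that floor). Xdh, xanthine dehydrogenase, was at 429 and 376 against 1948 to 3731 (-2.60 ± 0.213), and Gda, guanine deaminase, at 1360 and 1005 against 2215 to 8234 (-1.89 ± 0.242). Of 35 antioxidant and detoxifying genes 14 were lower and 4 higher, with a median of -0.23, and 6 and 9 were lower without NEO-1 and without NEO-2. Aldh1a1, which makes retinoic acid, was lowest at -1.49, with Ephx1 at -1.13 and Sod2, the mitochondrial superoxide dismutase, at -0.59 (-0.50 and not called without NEO-1), and Gstm5 was highest at 0.78. Of 29 transcription factors 5 were higher and 8 lower, 3 and 5 without NEO-1 and 6 and 2 without NEO-2. The share of higher ones was near the 15.1% over all genes, and that of lower ones exceeded 17.1% only with both arrays or without NEO-1. Egr1, an immediate early gene, was at 1338 and 1061 against 1743 to 12024 (-2.08 ± 0.274, 4 probe sets between -2.08 and -0.17). Klf9, which responds to thyroid and glucocorticoid hormone, was at 1807 and 1096 against 2877 to 5311 (-1.50 ± 0.192). Thra, a thyroid hormone receptor, was at 1.04, with other probe sets at 0.07 and -0.14, and Thrb at -0.41 (-0.28 and not called without NEO-2). Tcf21, a fibroblast factor, was at 0.80, Gata6 at 0.53 and Nkx2-5 at 0.37 (0.34 and not called without NEO-1). Of 9 clock output genes 3 were lower, Nr1d2 at -0.82, Dbp at -0.74 and Bhlhe41 at -0.53, and none of them was called without NEO-2 (-0.26, -0.56 and -0.39).

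The same probe sets were then followed in the 5 models of hypertrophy, each against its own controls, as the mean over its time points. The neonatal and model comparisons share control arrays, so the values are given side by side, and the members chosen without the control arrays of the model are counted as well. Over all probe sets, 3.28% were called higher and 1.98% lower in banding, 1.7% and 0.252% in infarction, 0.0458% and 0% in the shunt, and none with angiotensin II or Ditpa. Of the 268 neonatal-high probe sets, 40 (14.9%) were higher and 3 (1.12%) lower in banding, and 45 (16.8%) were higher and none lower in infarction. Chosen without the shared controls, 37 of 271 (13.7%) were higher in banding and 44 of 247 (17.8%) in infarction. The infarction count depended on single control arrays. It fell to 20 without replicate 2 of the 3-week shams and to 24 without replicate 5 of the 9-week shams. In the shunt 4 were higher, all of them Nppa, and 210 of the 268 were called in no model. Medians of the 268 were 0.09 in banding, 0.26 in infarction, 0.12 in the shunt, 0.13 under angiotensin II and 0.04 under Ditpa, against medians of all probe sets between -0.01 and 0.02. The number above 0 was 180, 240, 199, 203 and 156 in the same order.

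**Figure D4:**
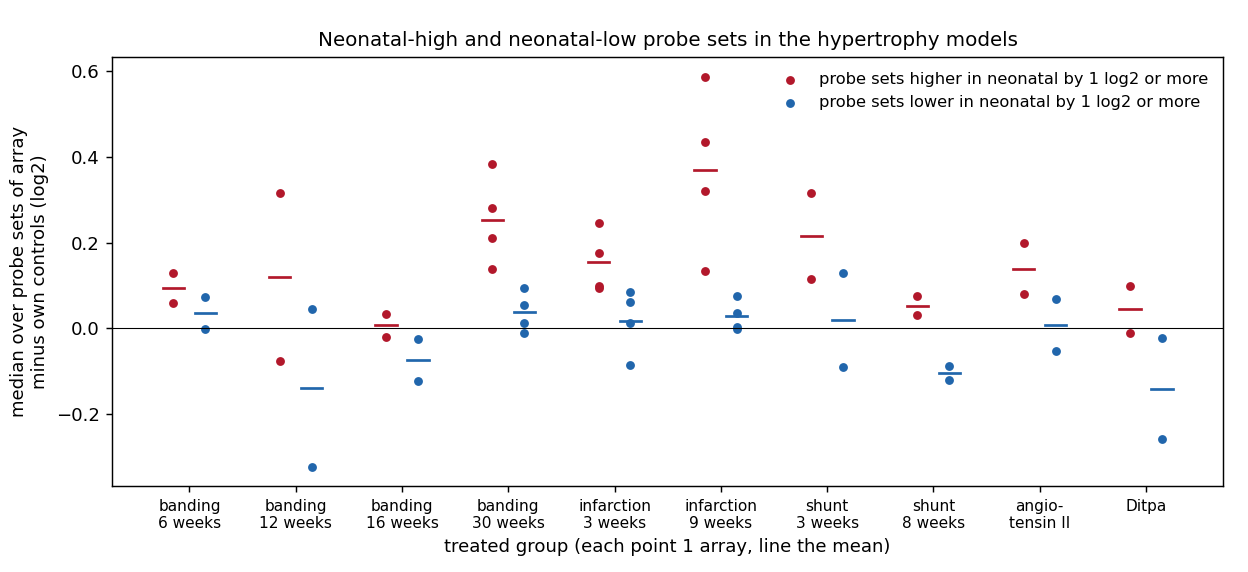
Median effect (log2, treated array minus the mean of its own controls) of the 268 neonatal-high (red) and the 132 neonatal-low (blue) probe sets on each array of the 10 treated groups, with a line at the group mean. The red points reach 0.59 at 9 weeks of infarction and 0.38 at 30 weeks of banding, and the blue points lie between -0.32 and 0.13.

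Within a model the effect differed between time points and arrays. At 9 weeks of infarction the neonatal-high median was 0.35, with single arrays from 0.13 to 0.59, and at 3 weeks it was 0.14 (0.09 to 0.25). At 30 weeks of banding it was 0.25 (0.14 to 0.38), at 6 weeks 0.09 and at 16 weeks -0.00, and the arrays of 12 weeks lay apart, at -0.08 and 0.32. The shunt gave 0.20 at 3 weeks and 0.05 at 8 weeks. The times were not tested against each other.

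Fetal muscle genes and matrix genes were among the neonatal-high genes that were higher in the models. Nppa rose by 2.41 ± 0.125 in banding, 2.46 ± 0.159 in infarction and 1.32 ± 0.183 in the shunt, and was at 1.39 in the neonatal ventricle (1.40, 1.35 and 1.38 against the control groups of the other models). Its signals were 26771 to 49977 in banding, 31707 to 44031 in infarction and 16178 to 21356 in the shunt, and 20567 and 20621 on the neonatal arrays. The highest signal of any probe set was 30195 on NEO-1 and 24526 on NEO-2, below every infarction signal of Nppa. Raw Nppa signals therefore cannot rank the neonatal ventricle against banding or infarction. After quantile normalisation the differences were 1.73 in the neonatal ventricle, 2.17 in banding and 2.09 in infarction. Acta1 rose by 2.02 ± 0.115 in banding and 1.57 ± 0.146 in infarction and was at 0.73, not called, in the shunt. Csrp2 rose by 1.69 ± 0.14 in banding and 1.11 ± 0.178 in infarction and was at 0.09 in the shunt. Postn rose by 1.82 ± 0.269 in banding and 2.20 ± 0.34 in infarction, with signals of 262 to 706 and 227 to 2206, below the neonatal 3226 and 5692 in every array. Of the 43 matrix genes, 15 were higher in banding and 17 in infarction and none was lower in either, with medians of 0.19 and 0.29. Col1a1, Col1a2, Col3a1, Fn1, Loxl1, Fstl1 and Vim were among the members called in both. Nppb, which was not called in the neonatal ventricle, rose by 1.46 in banding and 1.01 in infarction.

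Other fetal genes were not called in any model. Tnni1, by the brightest probe set of each gene the largest sarcomere difference of the neonatal ventricle, was at -0.01 in banding, 0.04 in infarction and -0.11 in the shunt. H19 was at 0.14 in banding and 0.10 in infarction, and Myl4 at 0.43 in banding (adjusted p = 0.0516). Cdk1 was at 0.28 in banding, 0.21 in infarction and 0.61 in the shunt, and none of these passed the test (adjusted p = 0.204 in banding). Of the 29 cell cycle drivers 1 was called in banding, Ccnd2 (0.85 ± 0.0951, adjusted p = 2.54e-07), and none in infarction. Of the ribosomal proteins 3 were higher in banding and 1 in infarction. The 3 calls in the opposite direction, all in banding, included Cbr1, a carbonyl reductase, at 1.07 in the neonatal ventricle and -0.35 in banding (adjusted p = 0.00271).

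**Figure D5:**
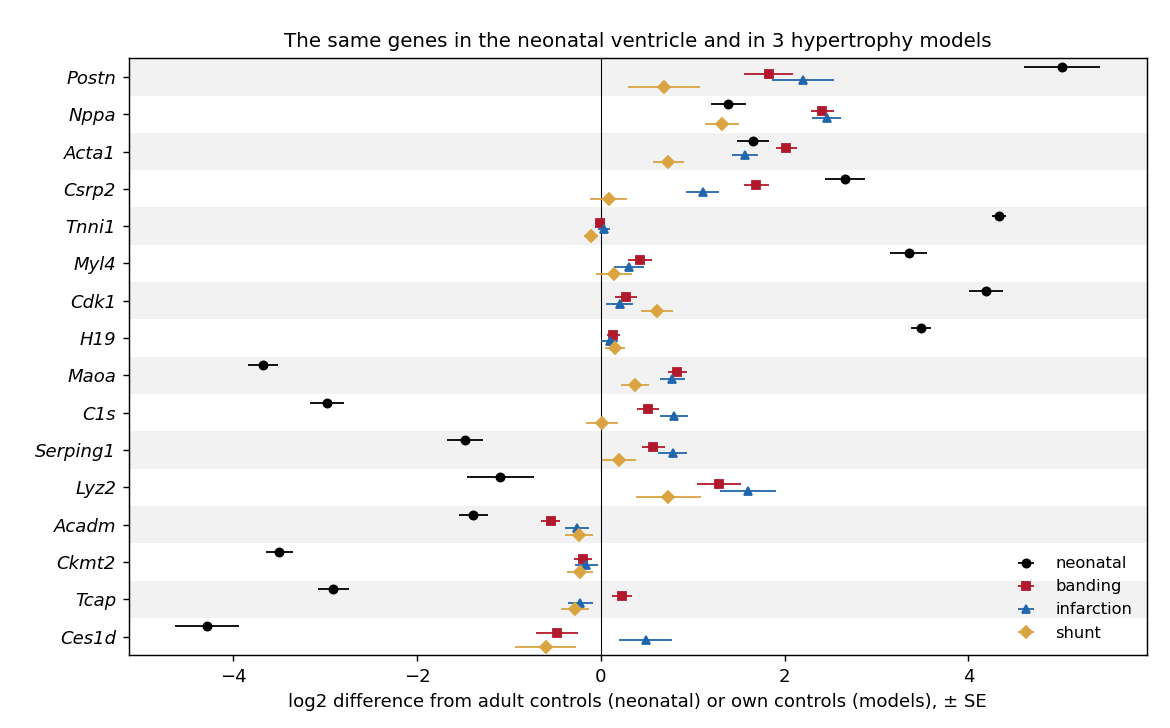
Differences (log2 ± SE) of 16 genes in the neonatal ventricle against the adult controls and in banding, infarction and shunt against their own controls. Nppa, Acta1, Csrp2 and Postn lie above 0 in the neonatal ventricle, banding and infarction, Tnni1, H19 and Cdk1 lie between 3.48 and 4.33 in the neonatal ventricle and at 0.61 or less in the models, and Maoa is at -3.68 in the neonatal ventricle and at 0.83 and 0.78 in banding and infarction.

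The 132 neonatal-low probe sets went in both directions. In banding 14 (10.6%) were higher and 17 (12.9%) lower, and in infarction 10 (7.58%) were higher and 2 (1.52%) lower, with medians of -0.01 and 0.05. Without the shared controls 14 of 155 (9.03%) were higher and 15 (9.68%) lower in banding, and 10 of 137 (7.3%) were higher and 2 (1.46%) lower in infarction. The infarction count fell to 6 without replicate 2 of the 3-week shams, and the infarction median to -0.00 without replicate 5 of the 9-week shams. No call was made in the other 3 models, shunt, angiotensin II and Ditpa, where the medians were -0.04, 0.03 and -0.13. Those lower in both the neonatal and the banded ventricle included metabolic enzymes, a channel and an antigen presentation gene. The last, Cd1d1, was at -0.53 in banding, a call lost in 2 of the fits without 1 array. Acadm was at -0.54 ± 0.104 in banding (adjusted p = 0.000968) and at -0.25, not called, in infarction. Acat1, of ketone and isoleucine breakdown, was at -0.52, the branched-chain enzyme Bckdha at -0.41, Got1 at -0.31 and Scn7a, a sodium channel, at -0.97. Of the 36 fatty acid genes 16 were lower and none higher in banding, with a median of -0.27, and 6 were lower in infarction. Other members were lower in the neonatal ventricle and higher in banding and infarction, among them the enzyme Maoa. Maoa rose by 0.83 ± 0.106 in banding and 0.78 ± 0.134 in infarction. C1s rose by 0.52 and 0.80, Serping1 by 0.57 and 0.78, and Lyz2 by 1.28 and 1.60, and the infarction call of Serping1 was lost without replicate 2 of the 3-week shams. Ckmt2 (-0.19 and -0.16) and Tcap (0.23 in banding) were not called.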

How the data were processed

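RNA pools of rat ventricle were hybridised to 46 Affymetrix oligonucleotide arrays of the rat genome. The deposited values are intensities on a linear scale, which the authors computed in dChip with a model of the perfect-match probes after scaling the arrays to a baseline by invariant ranks. As no mismatch signal is subtracted, probe sets are not read at 0 and folds of dim genes are compressed. The number of arrays limits the precision. Values of 8740 probe sets, the array's control probe sets being absent from the table, were converted to log2 after any below 16 had been set to 16. limma (version 3.58.1, R 4.3.3) fitted 20 group means to all 46 arrays (26 residual degrees of freedom) with moderated tests and Benjamini-Hochberg adjustment over all probe sets, at 0.05. The neonatal group was set against the mean of the 9 control groups, and each model's time points, weighted equally, against their own controls. Of the probe sets, 7006 had 1 gene symbol, 308 several and 1426 none. 6985 matched RefSeq by gene ID. A gene was read by its brightest probe set. Named genes were the 12 with the largest difference in each direction outside the range of the controls, a fixed set of key genes, up to 4 called members per list, direction and model, and listed members that a sentence counts. The members and lists were chosen with earlier results of these data known. The steps were tested on simulated data. Alternatives were other floors, quantile normalisation, a filter, array weights, blocks, other controls, a size of 1.5 log2, 1 probe set per gene and leaving out each array.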

Additional observations from a re-analysis of the deposited data

Results flagged for a closer look

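For 5 named genes the effects in the 5 hypertrophy models differed from each other, by limma's moderated F test among the 5 model effects with Benjamini-Hochberg adjustment over all probe sets. Nppa (adjusted p = 1.06e-05) was at 2.41 in banding, 2.46 in infarction, 1.32 after shunt, 0.57 under angiotensin II and -0.09 under Ditpa. Acta1 (adjusted p = 5.35e-05) was at 2.02, 1.57, 0.73, 0.53 and -0.01 in the same order. Pam, which amidates peptide hormones (adjusted p = 0.000578), was at 0.40, 0.43, 0.06, -0.40 and -0.48, and after quantile normalisation the last pair of values was 0.00 and -0.07. Csrp2 (adjusted p = 0.00211) was at 1.69, 1.11, 0.09, 0.22 and 0.35. Nppb (adjusted p = 0.0162) was at 1.46, 1.01, 0.60, 0.46 and -0.22. The angiotensin II and Ditpa arrays had the low ceiling described above, with medians of -0.60 and -0.61 for the brightest bin. The part of that ceiling in the differences between models was not tested. In the neonatal ventricle Pam was at -0.34, a call lost without NEO-2 (-0.26). No array stood apart among the 48 tests in groups of 4 arrays, of which chance would flag about 5%.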

How the results depend on the processing

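Of the 1357 probe sets called higher and 1489 lower in the neonatal ventricle, the array number as a replicate block left 824 and 969, a fit of 10 group means 873 and 744, and the vehicle group as the only control 666 and 567. Leaving out each array gave 844 to 1408 higher and 707 to 1634 lower, both lowest without NEO-1, and 774 lower without NEO-2. The 268 and 132 at 1 log2 or more stayed within 1.5 times under every alternative, and leaving out each array gave 256 to 282 and 129 to 162. The counts at 1.5 log2 and with 1 probe set per gene that follow are over fewer members. Per gene these were 129 neonatal-high and 62 neonatal-low, so a smaller count there is not by itself a smaller share. Of the neonatal-high probe sets, 40 were higher in banding, 6 with the replicate block, 21 at 1.5 log2 and 21 with 1 probe set per gene (31 to 48 without 1 array), and 45 in infarction, 79 with array weights, 25 at 1.5 log2 and 23 with 1 probe set per gene (20 to 66). Of the neonatal-low ones, 14 were higher in banding, 9 after quantile normalisation, 0 with the replicate block, 4 at 1.5 log2 and 8 with 1 probe set per gene (11 to 18), and 17 were lower, 27, 0, 3 and 8 in that order (12 to 25). In infarction 10 were higher, 18 with array weights, 22 with the replicate block and 3 at 1.5 log2 (6 to 14). The array numbers of treated and sham arrays differ, so this block is partly confounded with treatment. Deviations of same-numbered arrays from their group means were correlated with the neonatal ones at 0.09 in the 3-week infarction shams and -0.14 in vehicle. Whether the numbers pair samples in the other groups was not tested. The median of the neonatal-low probe sets in infarction, 0.05, was -0.0046 after quantile normalisation and -0.026 at 1.5 log2, and -0.0049 to 0.0888 without 1 array. Without 1 array the neonatal-high medians were 0.0514 to 0.126 in banding, 0.226 to 0.294 in infarction, 0.104 to 0.173 in the shunt, 0.0794 to 0.199 with angiotensin II and -0.0109 to 0.0995 with Ditpa, and the neonatal-low medians -0.0685 to 0.0234, -0.101 to 0.0239 in the shunt, -0.0530 to 0.0682 and -0.259 to -0.0221. With the replicate block the neonatal-high median in banding was 0.0249 and the neonatal-low ones -0.123 in banding and -0.121 in the shunt, and with 1 probe set per gene the last was 0.0402. Quantile normalisation turned the sign of Tnni3 (0.0015), Actc1 (0.00096), Myh6 (0.048), Rps29 (0.079), Gnas (0.036) and Myh7 (0.055). Tnni3 lay at the ceiling of the arrays, where its small value follows from the normalisation. The cause in the other genes was not tested. Of 171 named neonatal differences 57 missed the threshold with vehicle alone and 51 with group means. An exact rank sum test of 2 against 18 arrays cannot go below 0.0105, and 1461 probe sets higher and 1820 lower reached 0.0421 or less unadjusted.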
